A study of Mus musculus with 24 samples.

Results

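The genes described here are 9 transcription factors of the endothelial lineage: the ETS factors Erg and Fli1, the SOXF factors Sox7 and Sox18, the forkhead factors Foxf2, Foxq1 and Foxc1, the zinc finger factor Mecom and the basic helix-loop-helix factor Tal1. They were chosen by gene symbol, and each symbol matched 1 row, so that 9 of the 17270 genes in the deposited table belong to the group. All 9 had a mean above 5 normalized counts and were tested.

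RNA was sequenced from microvessels of the brain of male C57BL/6J mice aged 10 to 12 weeks, with 3 libraries in each of 8 groups. In 4 groups the mice had undergone 60 min of transient middle cerebral artery occlusion (tMCAO, a filament model of ischemic stroke followed by reperfusion), and the microvessels came from the ipsilateral (occluded) or the contralateral hemisphere 24 h or 7 days after surgery. In the other 4 groups the mice had undergone sham surgery, in which the filament was advanced and withdrawn at once, and the same hemispheres were taken at the same time points. The mice were given buprenorphine and, according to their need, saline and liquid food. Each library pooled 3 hemispheres of a kind, which puts 9 mice behind each group, and libraries judged to be outliers by the authors are not among the 3 per group. Microvessels are a mixture of endothelial cells, mural cells and whatever adheres to the wall, so fewer cells of a type and less RNA per cell cannot be told apart in any result below.

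Endothelial cells acquire and keep their identity through a small network of transcription factors that bind the enhancers of each other and of junction and receptor genes. ETS factors, with Erg in the lead, hold the endothelial program in place and are needed for VE-cadherin and for quiescence of the vessel wall. SOXF factors act in arterial differentiation and in vessel growth, and the forkhead factors Foxf2, Foxq1 and Foxc1 are enriched in brain vessels, where Foxf2 and Foxc1 also mark mural cells and take part in vascular development and in cerebral small vessel disease. Mecom, also called Evi1, is an arterial factor that is also used by blood stem cells. Tal1, Fli1 and Erg serve in blood cells too, above all in the erythroid and megakaryocyte lineages, and their mRNA in a microvessel library need not come from the endothelium.

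The libraries were rich in endothelial mRNA. All 12 markers of a panel of endothelial genes had a high mean level, from a percentile of 97.6 among all tested genes for Emcn to 99.9 for Cldn5 and Flt1, and Cdh5 was between 11532 and 25185 normalized counts in the 24 libraries. The total per library lay between 15924780 and 18787932 normalized counts, a spread of 1.18-fold. The libraries differed more in how short and long transcripts were represented. An index was computed for each library as the median log2 deviation of the shortest protein-coding genes (up to 1.8 kb of exons) minus that of the longest (from 9.99 kb). It was 0.253 to 0.381 in the ipsilateral libraries 24 h after tMCAO and −0.431 to −0.145 in the sham ipsilateral libraries at 24 h, without overlap, which bears on the long member Mecom (12.4 kb of exons) and on the short member Sox18 (1.62 kb).

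**Figure D1:**
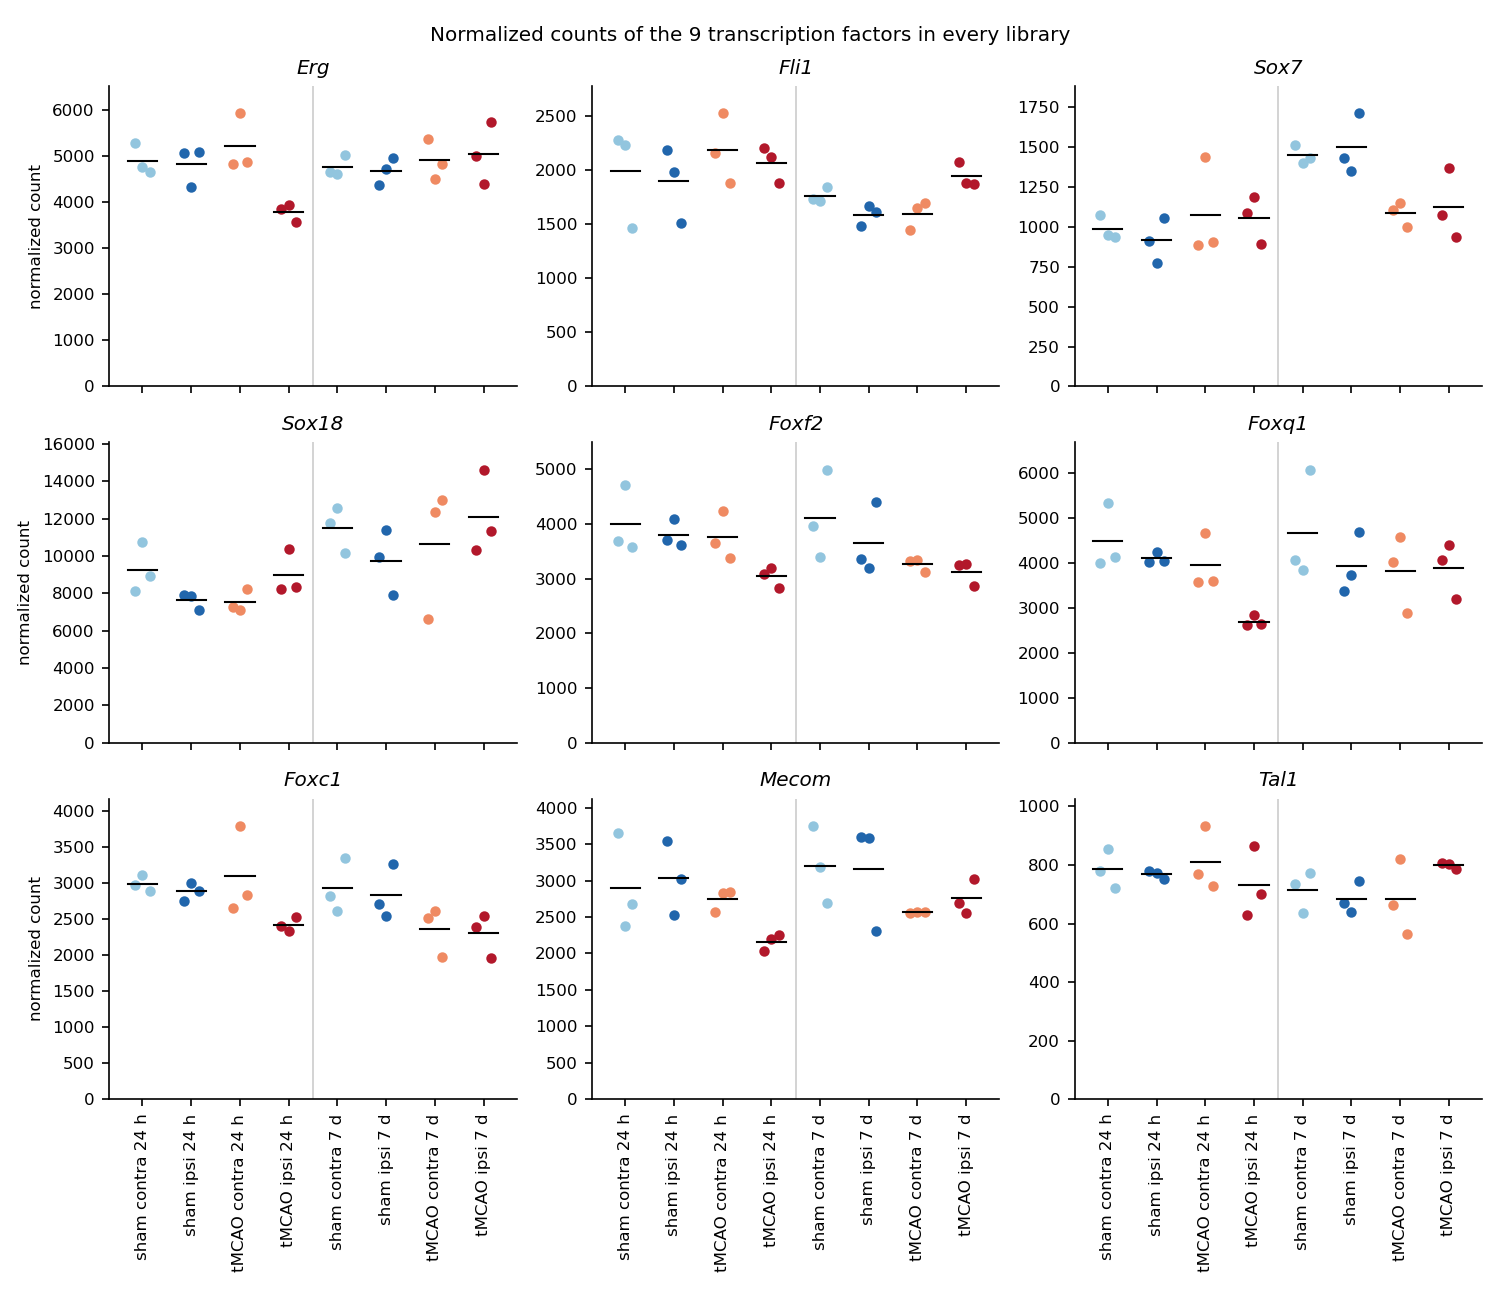
Normalized counts of each of the 9 genes (vertical axes, from 0) in each of the 24 libraries (points), arranged by surgery and hemisphere at 24 h (left of the grey line) and 7 days (right of it); black lines are the means of 3 libraries. Foxq1, Erg, Mecom and Foxf2 have their lowest group mean in the ipsilateral hemisphere 24 h after tMCAO, and Sox7 its highest in the sham libraries at 7 days.

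The members covered a wide range of levels. Per kilobase of exon and averaged over the 12 sham libraries, Sox18 stood highest with 5883 ± 1113 (SD) normalized counts per kb, and no sham library of another member reached its range. Foxf2 with 1646 ± 236, Erg with 1382 ± 85.3 and Foxq1 with 888 ± 153 normalized counts per kb followed, and the ranges of the sham libraries overlapped between Foxf2 and Erg and between Erg and Foxq1 but not between Foxq1 and Fli1, the next in order. Fli1 (519 ± 84.4), Foxc1 (497 ± 41.9), Sox7 (368 ± 89.6), Mecom (247.5 ± 43.8) and Tal1 (168.5 ± 14.6 normalized counts per kb) came after them, each overlapping with its neighbour in this order. Lengths are those of the merged exons in GENCODE M21, and a gene that mainly uses a short transcript is underestimated by them. Across the 18 libraries outside the ipsilateral hemisphere after tMCAO, Erg was the steadiest member with a coefficient of variation of 7.94%, and Sox7 with 23.1% and Sox18 with 22.6% varied most.

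All 9 genes are protein-coding. Foxq1 (chr13:31556134-31560976), Foxf2 (chr13:31625816-31631403) and Foxc1 (chr13:31806633-31812476) lie on the plus strand of chromosome 13 in mm10 within 256 kb of each other, 64.8 kb apart between Foxq1 and Foxf2 and 175 kb apart between Foxf2 and Foxc1. Erg (chr16:95359169-95586593) and Mecom (chr3:29951296-30509733) are long genes on the minus strand. Reads of Foxq1 share bases with A530084C06Rik, a gene annotated on the opposite strand over 31556134 to 31559333, those of Mecom with the antisense RNA Mecomos and those of Foxf2 with Gm27516. The kit marked strand, but the strand setting of the counting is not given in the sources used here, so reads of Foxq1 and A530084C06Rik cannot be told apart with certainty. A530084C06Rik itself was listed with 107 to 360 normalized counts per library, against 2620 to 6078 for Foxq1.

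RefSeq promoters (GRCm38.p6) were found for 5 of the 9 members, and 4 are shown as the 250 bases that end just before the RefSeq start, which lies 13 bases from the start in the deposited table for Foxc1 and 26 bases from it for Mecom: Foxf2 and Foxc1, because their levels moved together across the libraries, and Erg and Mecom, because they passed a test described below. Foxq1, Fli1, Sox7 and Sox18 had no entry. Capitals mark GGAAG on either strand, the core of many ETS sites.
Foxf2, chr13:31625566-31625815, plus strand: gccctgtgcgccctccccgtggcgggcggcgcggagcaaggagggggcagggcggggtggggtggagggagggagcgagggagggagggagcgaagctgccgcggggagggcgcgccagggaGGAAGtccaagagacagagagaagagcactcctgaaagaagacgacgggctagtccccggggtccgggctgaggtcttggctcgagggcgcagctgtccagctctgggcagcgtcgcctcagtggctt
Foxc1, chr13:31806396-31806645, plus strand: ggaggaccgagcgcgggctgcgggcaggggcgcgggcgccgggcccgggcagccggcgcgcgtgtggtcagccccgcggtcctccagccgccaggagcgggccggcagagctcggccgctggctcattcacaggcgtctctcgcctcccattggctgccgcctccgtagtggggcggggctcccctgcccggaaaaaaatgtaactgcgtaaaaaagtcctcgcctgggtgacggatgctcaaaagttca
Erg, chr16:95586594-95586843, minus strand: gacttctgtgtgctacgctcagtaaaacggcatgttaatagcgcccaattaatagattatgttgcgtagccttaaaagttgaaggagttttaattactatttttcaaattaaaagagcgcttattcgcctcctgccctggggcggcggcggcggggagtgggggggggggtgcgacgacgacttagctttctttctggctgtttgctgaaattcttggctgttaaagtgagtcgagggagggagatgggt
Mecom, chr3:30509760-30510009, minus strand: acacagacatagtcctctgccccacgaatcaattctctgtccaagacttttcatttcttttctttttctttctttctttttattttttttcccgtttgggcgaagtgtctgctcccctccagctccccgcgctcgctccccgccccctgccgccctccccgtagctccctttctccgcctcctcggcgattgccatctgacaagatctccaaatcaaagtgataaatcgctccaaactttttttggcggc
The motif was present at 1 position in the window of Foxf2 and at 0 positions in the windows of Foxc1, Erg and Mecom, while 64.1% of 32851 mouse promoters of the same length held it. Erg had 3 RefSeq entries and Mecom 2, of which the 1 nearest the deposited start was used. The motif was not counted in their other entries. Foxf2 and Foxc1 had GC contents of 71.6% and 70.8%, higher than in 92.7% and 91.7% of all promoters, with 21 and 29 CG dinucleotides. Erg (48.8%) and Mecom (50.8%) were below the median GC content of 52.4%, with 14 CG dinucleotides each. The median of all promoters was 6 CG dinucleotides, and each window shown was above it.

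The ipsilateral hemisphere after tMCAO was compared with the ipsilateral hemisphere after sham surgery at 24 h to ask what the acute phase does to the vessels. A member was called regulated when its limma test gave a Benjamini-Hochberg adjusted p under 0.05 over the 15982 genes tested and its log2 fold change on normalized counts plus 1 was beyond 0.585 (1.5-fold) in either direction. Foxq1 fell and was the only regulated member, and Erg and Mecom fell by less than the fold limit. The other 6 members did not pass the test. Regulated members were thus 1 of 9 in a comparison in which 18.3% of all genes were regulated (10.0% higher and 8.23% lower), and those with an adjusted p under 0.05 were 3 of 9 where 30.6% of all genes had one. The median log2 fold change of the members was −0.25, beside −0.02 for all genes.

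Foxq1, a forkhead factor of brain endothelial cells, had 4034, 4237 and 4041 normalized counts in the sham ipsilateral libraries at 24 h and 2620, 2836 and 2640 in the ipsilateral libraries after tMCAO. The 3 libraries after tMCAO were the lowest of all 24, and the next was a contralateral library at 7 days with 2880. From 4104 ± 115 to 2699 ± 119 (mean ± SD, n = 3 each), Foxq1 was 34.3% lower, a log2 fold change of −0.61 ± 0.19 (SE, limma adjusted p = 0.0189). The adjusted p was 0.0529 without sham ipsilateral library 2 and 0.0571 without ipsilateral tMCAO library 1. With a correction of each library for transcript length, chosen after the data were seen, the log2 fold change was −0.58 (adjusted p = 0.0231), just inside the fold limit.

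Erg, the ETS factor that maintains endothelial identity, had 5065, 4325 and 5096 normalized counts in the sham ipsilateral libraries and 3846, 3935 and 3577 after tMCAO. These 3 values were the lowest of all 24 libraries. Erg was 21.4% lower (log2 fold change −0.35 ± 0.11 SE, limma adjusted p = 0.0204), and −0.40 with an adjusted p of 0.0147 after the correction for transcript length. The adjusted p was 0.0811 without sham library 1, 0.0751 without sham library 3 and 0.0645 without ipsilateral tMCAO library 3.

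Mecom, an arterial and blood stem cell factor, had 3551, 2523 and 3022 normalized counts in the sham ipsilateral libraries and 2038, 2200 and 2251 after tMCAO. The libraries did not overlap, although sham library 2 was close to the treated range. Mecom was 28.0% lower (log2 fold change −0.47 ± 0.17 SE, limma adjusted p = 0.0393). The adjusted p stayed under 0.05 with 1 of the 6 libraries left out (sham library 2, log2 fold change −0.60, adjusted p = 0.0232), in which case Mecom and not Foxq1 was the regulated member, while the other 5 gave 0.0564 to 0.18, and after the correction for transcript length the log2 fold change was −0.19 (adjusted p = 0.397).

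The other forkhead members had smaller differences. Foxf2, which is linked to mural cells and the blood-brain barrier, had 3707, 4091 and 3616 normalized counts after sham surgery and 3087, 3200 and 2836 after tMCAO. Foxc1, a regulator of vessel and meningeal development, had 2751, 3000 and 2888 after sham surgery and 2402, 2333 and 2519 after tMCAO. Neither gene overlapped between the groups and neither passed the test in the fit over all groups (log2 fold change −0.32 ± 0.14 SE, adjusted p = 0.0838 for Foxf2, and −0.25 ± 0.14 SE, adjusted p = 0.168 for Foxc1). In a fit of the compared groups alone the adjusted p was 0.0276 for Foxf2 and 0.0394 for Foxc1, and with endothelial panel centring it was 0.0105 and 0.0377. Foxf2 also passed with median centring (adjusted p = 0.0455) and with the correction for transcript length (log2 fold change −0.46, adjusted p = 0.0171). Foxc1 passed with neither, and its log2 fold change was −0.17 (adjusted p = 0.355) after the length correction. Of 9 alternative settings, Foxf2 passed in 4 and Foxc1 in 2. Neither gene passed after removal of any 1 of the 6 libraries (adjusted p 0.1052 to 0.2165 for Foxf2 and 0.1803 to 0.3185 for Foxc1).

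Fli1, the ETS relative of Erg, had 2188, 1985 and 1509 normalized counts after sham surgery and 2199, 2117 and 1879 after tMCAO, with overlapping libraries (log2 fold change 0.14 ± 0.15 SE, adjusted p = 0.507). Tal1 did not pass either (−0.08 ± 0.13 SE, adjusted p = 0.659). For the SOXF members the values were 0.20 ± 0.17 (adjusted p = 0.372) for Sox7 and 0.23 ± 0.20 (adjusted p = 0.412) for Sox18. Sox18, with 8243, 10371 and 8312 normalized counts after tMCAO against 7915, 7873 and 7101, was higher in each of the 3 libraries but by less than the test could resolve, and its log2 fold change was 0.01 after the correction for transcript length. Altogether 6 of the 9 members had libraries that did not overlap between the groups, beside 49.0% of all genes.

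**Figure D2:**
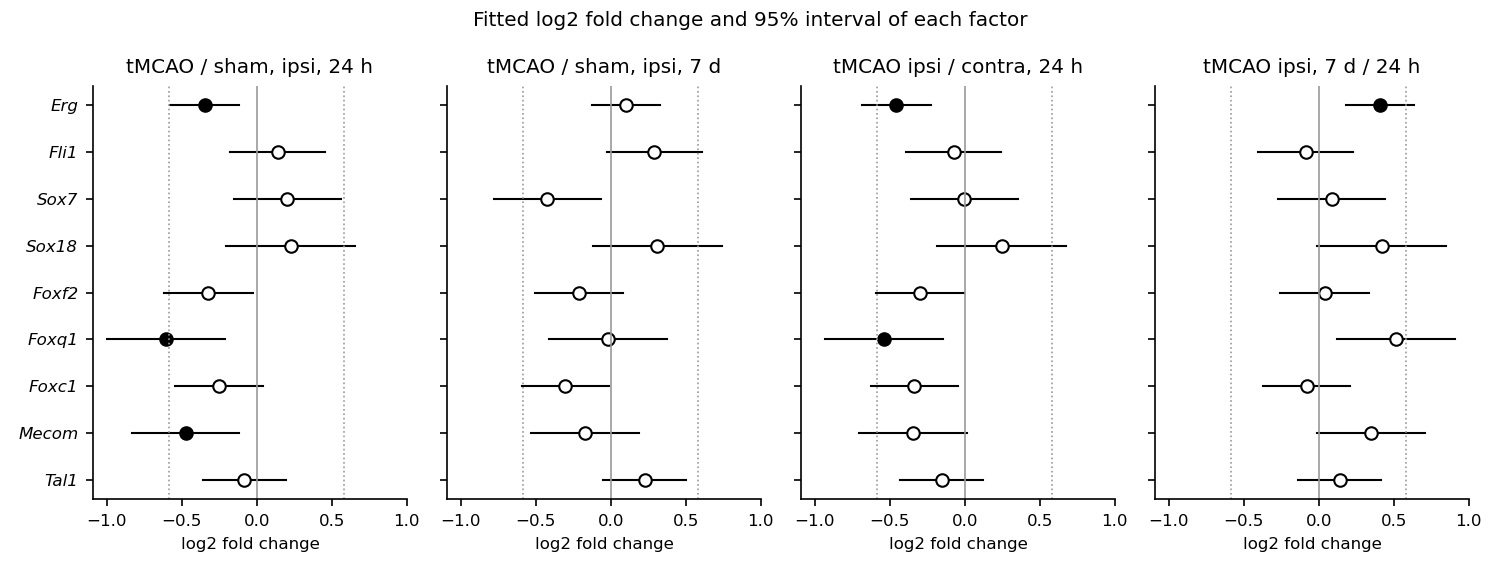
Fitted log2 fold change (circles) with its 95% interval (lines) for each of the 9 genes in 4 comparisons; filled circles have an adjusted p under 0.05, the solid line is no change and dotted lines are the 1.5-fold limits. At 24 h against sham, Erg, Foxq1 and Mecom are filled on the left side, and at 7 days against sham no circle is filled.

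Other cell types changed in the same libraries. A panel of 9 neutrophil and monocyte markers summed to 3490 to 6805 normalized counts in the ipsilateral libraries 24 h after tMCAO and to 351 to 1341 after sham surgery, and 8 of the 8 tested markers were regulated and higher. None of these markers was at 0 in all libraries of a group, and the lowest, Ly6g, averaged 16.7 and 1.67 normalized counts. Of 12 endothelial markers 1 was regulated and higher and none lower, and of 12 mural markers 3 were regulated and lower, with sums of 84867 to 153503 after tMCAO and 153517 to 179666 after sham surgery. The mean log2 level of the mural markers differed by −0.43, with overlapping libraries. Markers of neurons (4 of 8), astrocytes (4 of 8) and oligodendrocytes (2 of 8) were also regulated and lower, by −1.13, −0.65 and −0.73 in their mean log2 level, without overlap of the libraries. The same panels differed by −0.66, −0.17 and 0.02 when the tMCAO contralateral libraries at 24 h served as reference, and each overlapped. In that comparison 3 neuron, 2 astrocyte and 0 oligodendrocyte markers were regulated and lower. In sham mice at 24 h, 7 of 8 neuron, 8 of 8 astrocyte and 8 of 8 oligodendrocyte markers were higher ipsilaterally, with none regulated. Across the 24 libraries, which may share mice between hemispheres, Mecom had a Pearson r of −0.83 with the mean log2 level of the neutrophil and monocyte panel, and also −0.83 after group means were removed. For Foxq1 and Erg the same r was −0.24 and −0.39, and 0.77 and 0.01 after group means were removed. Other pairs had values as large after that removal. Mecom had −0.74 with the erythroid and megakaryocyte panel and −0.73 with the lymphocyte panel. Foxf2 and Foxc1 had 0.79 and 0.67 with the neutrophil and monocyte panel. Erg had −0.70 with the microglia and macrophage panel and −0.70 with the fibroblast panel. Centred on the endothelial panel instead of the size factors, a shift of −0.20 in the median of all genes, the log2 fold change was −0.81 for Foxq1, −0.55 for Erg and −0.68 for Mecom. The part of other cell types and of transcript length in the results at 24 h was not tested beyond these values.

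**Figure D3:**
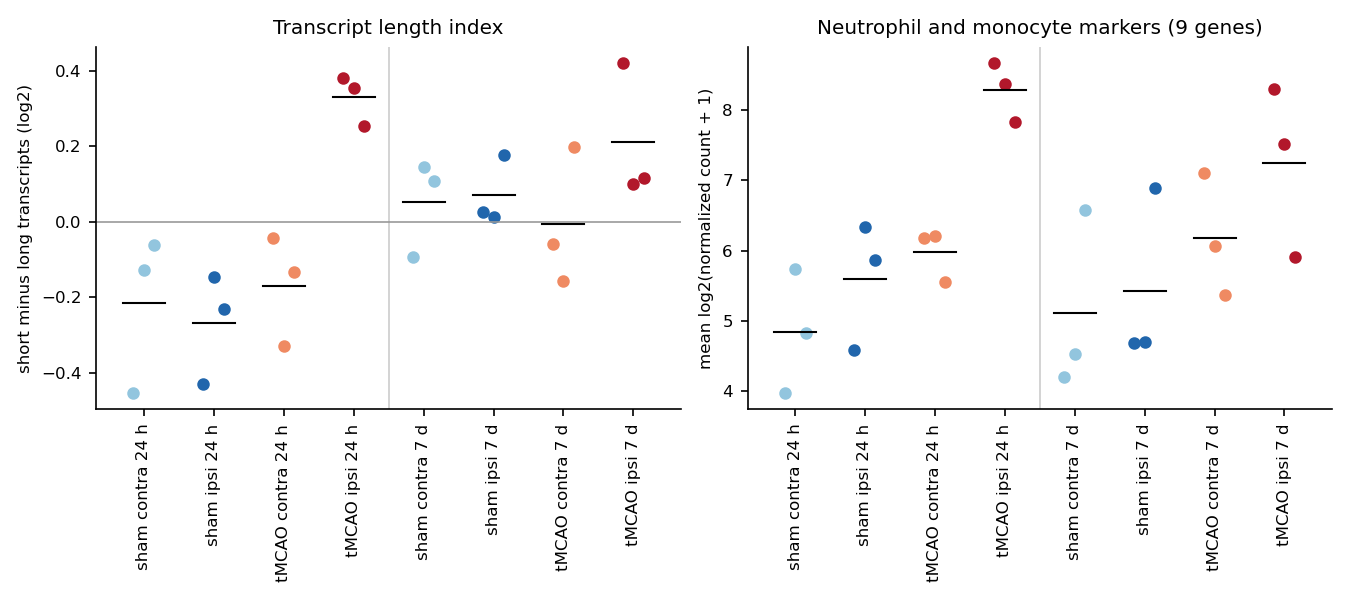
Transcript length index of each library (left, log2 deviation of short minus long transcripts) and mean log2(normalized count + 1) of 9 neutrophil and monocyte markers (right), by group; points are libraries and black lines means of 3. The 3 ipsilateral libraries 24 h after tMCAO lie at 0.253 to 0.381 on the left axis, above every other library at 24 h, and are also above all other libraries at 24 h on the right.

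Measured against the contralateral hemisphere of the tMCAO mice at 24 h, which shares the ipsilateral libraries with the comparison above, Erg and Foxq1 passed the test again and no member reached the fold limit, where 13.7% of all genes were regulated and 24.4% had an adjusted p under 0.05. The contralateral libraries had 4837, 5929 and 4878 normalized counts of Erg, all above the ipsilateral libraries, and the log2 fold change was −0.46 ± 0.11 (SE, limma adjusted p = 0.00443). It kept an adjusted p under 0.05 in each of the 6 fits that left out 1 library. For Foxq1 the contralateral libraries had 3587, 4670 and 3593 normalized counts, with a log2 fold change of −0.54 ± 0.19 (SE, adjusted p = 0.0391), but without any 1 of the 6 libraries the adjusted p was 0.0508 to 0.157. Foxf2 (−0.30, adjusted p = 0.122), Foxc1 (−0.34, 0.0787) and Mecom (−0.35, 0.143) were below the contralateral range without passing, and with Sox18 above it 6 of the 9 members did not overlap, beside 40.8% of all genes. The remaining 4 members had log2 fold changes between −0.15 (Tal1) and 0.25 (Sox18). The fit did not pair same-numbered hemispheres, whose residual r was 0.0658 to 0.36 here, and the labels do not say which mice they share. With a block for the number, Foxf2, Foxc1 and Mecom passed the limma test below the fold limit (adjusted p = 0.00287, 0.00916 and 0.0036).

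At 7 days no member was regulated and none had an adjusted p under 0.05 in the comparison of ipsilateral hemispheres after tMCAO and sham surgery, in which 13.2% of all genes were regulated and 16.9% had such a p. At an unadjusted p under 0.05 there were 2 of the 9 members, Sox7 and Foxc1, and 4687 of the 15982 genes tested. Foxq1 had 3382, 3733 and 4699 normalized counts after sham surgery and 4074, 4399 and 3194 after tMCAO, a log2 fold change of −0.02 ± 0.19 (SE). Erg had 4375, 4710 and 4965 against 4997, 4403 and 5744, a log2 fold change of 0.10 ± 0.11 (SE, adjusted p = 0.589). For both genes the groups overlapped, and the 95% intervals of −0.41 to 0.38 for Foxq1 and −0.13 to 0.33 for Erg left out the fold limits.

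Sox7, which acts in arterial specification and vessel sprouting, had the largest difference at 7 days. It had 1433, 1354 and 1713 normalized counts in the sham ipsilateral libraries and 1073, 1368 and 939 after tMCAO. One library after tMCAO lay within the sham range, and the log2 fold change of −0.42 ± 0.17 (SE) had an adjusted p of 0.0935. Without that library (ipsilateral tMCAO library 2) it was −0.57 with an adjusted p of 0.0339. Of the 6 fits that left out 1 library, only this 1 passed. Over the 6 fits the log2 fold change of Sox7 ran from −0.57 to −0.30, and the adjusted p was up to 0.317. Foxc1 had a log2 fold change of −0.30 ± 0.14 (SE, adjusted p = 0.143), Foxf2 of −0.21 ± 0.14 and Mecom of −0.17 ± 0.17, each with overlapping libraries.

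Fli1 and Tal1 stood on the higher side at 7 days. Fli1 had 1486, 1667 and 1610 normalized counts after sham surgery and 2074, 1880 and 1874 after tMCAO, and Tal1 had 670, 638 and 744 against 806, 804 and 786. Neither overlapped between the groups, as did not 30.0% of all genes, and neither passed the test (log2 fold change 0.29 ± 0.15 SE, adjusted p = 0.205 for Fli1, and 0.23 ± 0.13 SE, adjusted p = 0.266 for Tal1). Beside these blood and endothelial factors, 9 erythroid and megakaryocyte markers summed to 3266 to 27177 normalized counts after tMCAO and to 18698 to 59673 after sham surgery at 7 days, lower on average, with overlapping libraries. The neutrophil and monocyte markers summed to 903 to 5185 after tMCAO and to 332 to 1933 after sham surgery, with 8 of 8 tested markers on the higher side and 1 of them regulated, and 3 of 4 tested lymphocyte markers were on the higher side with none regulated. Markers of other brain cells were lower in the same comparison, with 7 of 8 neuron, 3 of 8 astrocyte, 2 of 8 oligodendrocyte, 3 of 7 fibroblast and 4 of 7 choroid plexus markers regulated and lower. All 12 mural markers were on the lower side with 1 regulated, and 9 of 12 endothelial markers were on the higher side with 1 regulated. The mean log2 levels of these 2 panels differed by −0.38 and 0.16, each without overlap of the libraries. The part of these cell types in the values of the members at 7 days was not tested. Of 8 proliferation markers, 6 were tested and all 6 were regulated and higher. Against the contralateral hemisphere at 7 days, where 13.0% of all genes were regulated, no member was regulated and the log2 fold changes lay between −0.06 (Foxf2) and 0.29 (Fli1). None had an adjusted p under 0.05, beside 16.0% of all genes, and Fli1 alone did not overlap, beside 25.3%.

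Between 24 h and 7 days the ipsilateral hemispheres after tMCAO differed in Erg, which was higher at 7 days with 4997, 4403 and 5744 normalized counts against 3846, 3935 and 3577 (log2 fold change 0.41 ± 0.11 SE, limma adjusted p = 0.0125). No member reached both limits, while 12.2% of all genes were regulated and 19.3% had an adjusted p under 0.05. Without ipsilateral library 3 at 7 days the adjusted p of Erg was 0.0744, and it was 0.066 in a fit of the compared groups alone. Foxq1 had 4074, 4399 and 3194 normalized counts against 2620, 2836 and 2640, above each library at 24 h, and 0.51 ± 0.19 (SE, adjusted p = 0.0569) as log2 fold change. It became 0.62 (adjusted p = 0.0228) after the libraries were centred on the median of all genes, a scaling that moves that median by 0.11 in this comparison. Mecom, with 2695, 2552 and 3024 against 2038, 2200 and 2251, was also without overlap (0.35 ± 0.17 SE, adjusted p = 0.158), which makes 3 of the 9 members beside 34.2% of all genes. Foxf2 and Foxc1 had values of 0.04 and −0.08.

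Whether the effect of tMCAO against sham differed between the time points was tested as an interaction over the 4 ipsilateral groups. No member passed, while 8.12% of all genes were regulated and 10.2% had an adjusted p under 0.05. The differences of the log2 fold changes, 7 days minus 24 h, reached 0.59 ± 0.26 (SE, adjusted p = 0.16) for Foxq1, 0.45 ± 0.15 (adjusted p = 0.0656) for Erg and −0.63 ± 0.24 (adjusted p = 0.0969) for Sox7. After the correction for transcript length the value of Erg was 0.61 with an adjusted p of 0.0225.

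Sox7 also differed between the sham groups. In the sham ipsilateral hemisphere it had 915, 777 and 1059 normalized counts at 24 h and 1433, 1354 and 1713 at 7 days, and in the sham contralateral hemisphere 1075, 951 and 939 against 1516, 1404 and 1434. In both hemispheres every library at 7 days was above every library at 24 h. The fold changes were 1.64 (log2 0.71 ± 0.17 SE, adjusted p = 0.0542) and 1.47 (0.56 ± 0.17 SE, adjusted p = 0.178), and neither passed the test. Only 0.476% and 0.332% of all genes were regulated between these sham groups, and 22.0% and 17.6% did not overlap. In the ipsilateral comparison Sox18 (higher at 7 days) and Tal1 (lower) did not overlap either, which made 3 of the 9 members, and in the contralateral one it was Sox7 alone. The transcript length index of the sham ipsilateral libraries was −0.431 to −0.145 at 24 h and 0.0138 to 0.178 at 7 days, without overlap. After the correction of each library for transcript length, the ipsilateral log2 fold change was 0.70 for Sox7, 0.23 for Sox18 (0.34 before) and −0.16 for Tal1 (−0.17 before). The tMCAO groups at 7 days had 1002 to 1149 normalized counts of Sox7 contralaterally and 939 to 1368 ipsilaterally, so the sham libraries at 7 days were the highest group. In the same ipsilateral sham libraries the sums of 8 lymphocyte markers were 29 to 45 normalized counts at 24 h and 46 to 95 at 7 days, without overlap of their mean log2 level (exact permutation test, 2-sided p = 0.1, the smallest that 3 against 3 libraries can give), and those of the erythroid and megakaryocyte markers were 1116 to 10265 and 18698 to 59673. Their part in the values of Sox7 was not tested.

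The other control comparisons held no regulated member. Between the sham hemispheres limma without pairing called 0 genes at 24 h and 0 at 7 days, with 367 and 359 genes at an unadjusted p under 0.05. With a block that paired same-numbered hemispheres it called 1 and 0 genes. Sox18 at 24 h and Fli1 at 7 days did not overlap, beside 11.5% and 7.00% of all genes. Between the contralateral hemispheres after tMCAO and sham surgery limma called 0 genes at 24 h and 5 (0.0313%) at 7 days, with 405 and 1639 genes at an unadjusted p under 0.05, and at 24 h no member was without overlap, beside 8.20% of all genes. At 7 days Fli1, Sox7, Foxf2, Foxc1 and Mecom were lower in the contralateral hemisphere after tMCAO without overlap of the libraries, with log2 fold changes from −0.15 for Fli1 to −0.42 for Sox7 and adjusted p of 0.408 or more, and 9.80% of all genes did not overlap there. Contralateral library 1 at 7 days after tMCAO stood low in Sox18, with 6638 normalized counts against 12323 and 12982 in its group. The same library stood high in the mean log2 level of the astrocyte markers, with 11.3 against 9.82 and 10.02, and of the neuron markers, with 10.5 against 9.02 and 9.20, and their part in its Sox18 value was not tested.

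The levels of the 3 forkhead genes on chromosome 13 varied together from library to library. Over the 24 libraries the Pearson r of log2 levels was 0.82 between Foxq1 and Foxf2, 0.83 between Foxf2 and Foxc1 and 0.71 between Foxq1 and Foxc1, and 0.83, 0.74 and 0.88 after group means were removed. The other 33 pairs of members ranged from −0.44 (Sox18 and Foxc1) to 0.53 (Fli1 and Tal1). With group means removed other members varied with these genes as well: r was 0.74 between Foxq1 and Tal1, 0.65 between Foxc1 and Tal1, 0.64 between Foxf2 and Tal1, 0.64 between Sox7 and Foxc1 and −0.67 between Foxf2 and Mecom. Among 13577 genes with a mean above 20, Foxf2 had Foxc1 and Foxq1 among its 3 most alike genes, after Zfp110 (r = 0.84), and Foxq1 had Zfp110 (0.82), Foxf2 and 4930523C07Rik (0.81). The libraries may share mice between hemispheres and were scaled together, and the r values are given as a description. Gmds, the gene next to Foxc1, had means of 266 normalized counts in the sham ipsilateral hemisphere at 24 h and 427 after tMCAO (r with Foxq1 −0.48). The antisense neighbour A530084C06Rik of Foxq1 had means of 208 and 143.

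**Figure D4:**
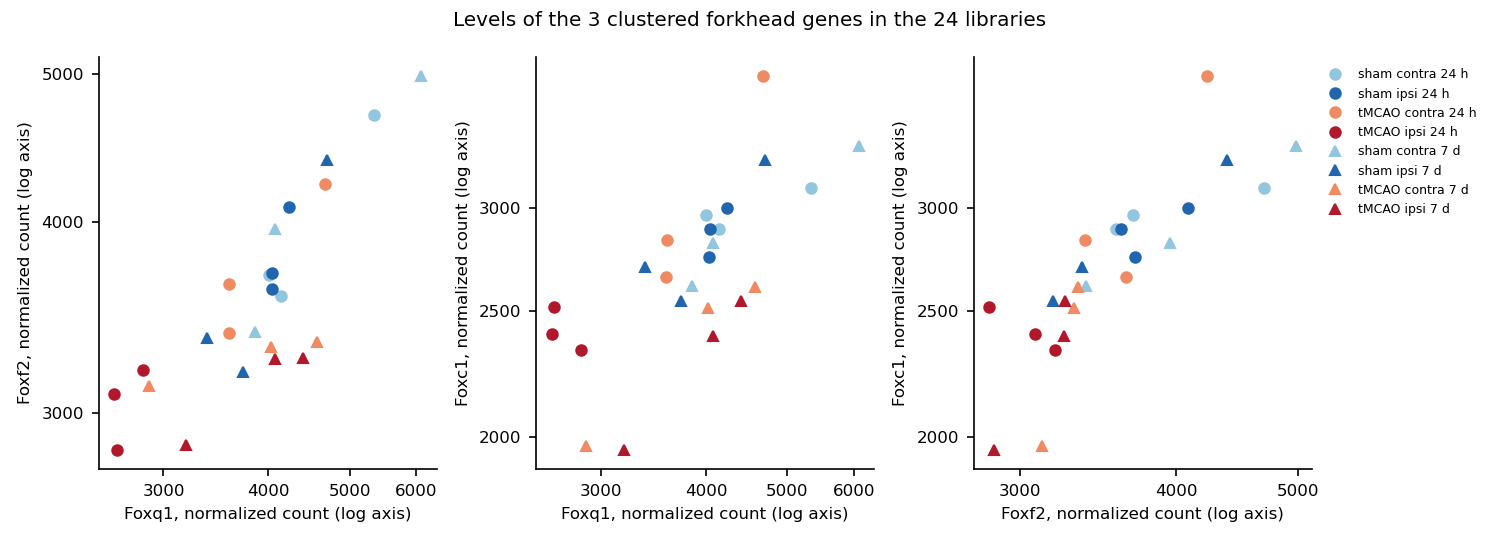
Normalized counts of Foxq1, Foxf2 and Foxc1 plotted in pairs on log axes for the 24 libraries; circles are 24 h, triangles 7 days, and colours are the groups. The libraries rise along the diagonal in each panel, with r between 0.71 and 0.83, and the 3 ipsilateral libraries 24 h after tMCAO lie at the low end of Foxq1.

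The genes most like the other members differed by member. Erg went with Crybg3 (r = 0.90), Usp6nl (0.89) and Rab11fip1 (0.87), and Mecom with Cyp2e1 (0.91), Cobll1 (0.87) and Ssfa2 (0.84). Sox7 went with the interferon-inducible GTPases Tgtp1 (0.84), Gbp2 (0.83) and Tgtp2 (0.81), of which Tgtp1 and Tgtp2 are near-identical copies, and their values are uncertain because reads that matched several genes were left out by the authors. Sox18 went with Gtf3a, Selenom and Ccdc90b (0.85 each), Fli1 with Taf2 (0.79), Phf10 (0.77) and Plk4 (0.75), Tal1 with Smc4 (0.80), Rest and Nufip2 (0.79 each), and Foxc1 with Zbtb26, Spty2d1 (0.88 each) and Foxf2. The transcript length index had an r of −0.55 with Mecom, −0.53 with Foxc1, −0.51 with Erg, −0.45 with Foxq1 and 0.37 with Sox18 over the 24 libraries. After group means were removed it was −0.64 for Mecom and between −0.37 (Sox7) and 0.13 (Foxf2) for the others.

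A list of 30 other endothelial transcription factors was followed beside the members. At 24 h against sham 1 of them was regulated and higher and 3 were regulated and lower, at the background of all genes given above. Bcl6b, a repressor expressed in endothelial cells, rose by 1.08 ± 0.29 on the log2 scale (SE, adjusted p = 0.00859). Hey1 (−0.71, adjusted p = 0.0037), a Notch effector of arterial cells, and Zfp366 (−0.61, adjusted p = 0.0137) were among those that fell. At 7 days only Heyl, another Notch effector that is also found in mural cells, was regulated (−0.84, adjusted p = 0.0254), where 3.27% of all genes were higher and 9.95% lower. Against the contralateral hemisphere the counts were 1 higher and 5 lower at 24 h (all genes 8.52% and 5.14%) and 0 higher and 1 lower at 7 days (all genes 3.03% and 9.98%). Between 24 h and 7 days after tMCAO they were 5 higher and 2 lower (all genes 3.72% and 8.44%). The median log2 fold change of the list was −0.17 at 24 h and 0.00 at 7 days against sham.

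A list of endothelial target genes of these factors was followed too. Of 21 endothelial target genes 2 were regulated at 24 h against sham, beside 18.3% of all genes, both higher: Emcn, the sialomucin endomucin (log2 fold change 0.85 ± 0.18 SE, adjusted p = 0.00182), and Icam2, an ETS-dependent adhesion molecule (0.73 ± 0.15 SE, adjusted p = 0.00117). Cdh5, which encodes VE-cadherin and is an ETS target, had a log2 fold change of 0.42 ± 0.24 (SE, adjusted p = 0.188). At 7 days Vwf, the von Willebrand factor (1.27 ± 0.18 SE, adjusted p = 5.37e-05), and Egfl7 (0.94 ± 0.15 SE, adjusted p = 0.000143) rose, and the Notch ligand Dll4 fell (−0.64 ± 0.19 SE, adjusted p = 0.0246), which made 3 of 21 beside 13.2% of all genes. Against the contralateral hemisphere 0 of 21 were regulated at 24 h and 3 were higher at 7 days, beside 13.7% and 13.0% of all genes. The list had a median log2 fold change of 0.26 at 24 h and 0.18 at 7 days against sham, while the 9 factors had −0.25 and −0.02. The panel of 12 endothelial markers, which shares genes such as Emcn and Egfl7 with the list, had medians of 0.26 and 0.19. The shift of the list was thus not particular to target genes.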

How the data were processed

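Microvessels were isolated from the hemispheres of mice after tMCAO or sham surgery, and polyadenylated RNA was sequenced (TruSeq Stranded mRNA). According to the methods and the submitters' processing notes, the authors aligned reads with STAR to mm10 (GRCm38), counted them (featureCounts 1.5.1 in the notes) and normalized them with DESeq2, whose version differs between these sources. What they deposited, treated here as a score, are counts scaled by DESeq2 to whole numbers and not raw reads, so no count model was run. Log2 values of the normalized counts plus 1 were fitted with limma 3.58.1 in R 4.3.3, with a mean-variance trend, all 8 groups and the 15982 genes with a mean above 5, and Benjamini-Hochberg adjustment over these genes. Python 3.11.15 with scipy 1.17.1 served for levels, correlations and exact permutation tests, and the fit was tested on simulated data. Lengths came from GENCODE M21, in which 99.9% of the genes were found. Sham hemispheres with the same number deviated together (residual r 0.145 to 0.467), as paired pools would, but the main fit did not pair them. The labels do not say which mice a library holds, and p-values measure the spread between pools. The members and gene lists were chosen with earlier results of these data known. All 9 members are named, from the 2 lists up to 5 regulated genes per direction and time point against sham, and the 3 genes most like each member. Cdh5, Gmds, A530084C06Rik and the markers were chosen to be named with their values known. A correction of each library for transcript length (natural spline) was added after seeing the data. The values of 1 gene that this rule selects are not reported here.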

Additional observations from a re-analysis of the deposited data

How the results depend on the processing

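The count of regulated members was recomputed with a pseudocount of 0.5, without the filter, with a minimum mean of 20, with median and endothelial panel centring, with only the compared groups, without the fold limit, with the replicate block, without the trend and without each library. At 24 h against sham it was 1, and 2 with endothelial panel centring, 3 without the fold limit, 0 with the added correction for transcript length and 0 to 1 without 1 library (without sham ipsilateral library 2 the 1 member was Mecom). At 7 days against sham it went from 0 to 1 with endothelial panel centring (Sox7, −0.59). Against the contralateral hemisphere at 24 h it went from 0 to 1 with median centring and with endothelial panel centring (Foxq1) and to 2 without the fold limit. Between 7 days and 24 h it went from 0 to 1 with median centring, without the fold limit and with the length correction, and was 0 to 1 without 1 library, as it was for the interaction, which also came to 1 with the length correction (Erg). The control comparisons gave 1 with a minimum mean of 20 (Sox7 between the sham ipsilateral groups) and 0 to 1 without 1 library. With the replicate block all these counts stayed at their main values (1 at 24 h against sham, otherwise 0). Between hemispheres the block joined same-numbered libraries of a surgery and time point, although those of the stroke groups did not all deviate together. In the other comparisons it joined the same number across surgeries and time points, whose mice differ, so the unchanged counts there say nothing about pairing. Under the block Foxf2 (adjusted p = 0.00287), Foxc1 (0.00916) and Mecom (0.0036) passed the limma test against the contralateral hemisphere at 24 h and Fli1 (0.0242) at 7 days, below the fold limit.

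Among the values printed in the report, none that passed the test changed its sign. Signs changed for these values near 0: Fli1 (−0.0658) and Sox7 (−0.0005) at 24 h against sham, Erg at 7 days against sham (−0.0613) and Foxf2 between time points (−0.0342) with endothelial panel centring; Foxq1 at 7 days (0.0234) and Fli1 (0.0189) and Foxc1 (0.0235) between time points with median centring; and Foxq1 (0.12) and Mecom (0.0838) at 7 days and Fli1 (0.0693) and Foxc1 (0.026) between time points with the length correction. Leaving out 1 library gave −0.0164 to 0.251 for Fli1 and −0.21 to 0.0189 for Tal1 at 24 h against sham, −0.12 to 0.118 for Foxq1 at 7 days, −0.178 to 0.0337 for Fli1 and −0.124 to 0.226 for Sox7 against the contralateral hemisphere at 24 h, −0.0935 to 0.0004 for Foxf2 against it at 7 days, and −0.0623 to 0.209 for Sox7, −0.011 to 0.101 for Foxf2 and −0.16 to 0.0301 for Foxc1 between time points. The cause of these shifts was not tested. Another scaling changed the split of all regulated genes at 24 h against sham from 1603 higher and 1316 lower to 1331 and 1707 with median centring and 882 and 2483 with endothelial panel centring, and between time points from 594 and 1349 to 939 and 1033 with median centring.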
